A study of Ovis aries with 14 samples.

Results

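The 6 genes described here are the protein-coding genes of the sheep mitochondrial genome that encode parts of respiratory complexes III and IV and of ATP synthase. They are CYTB (ENSOARG00000000035), COX1 (ENSOARG00000000016), COX2 (ENSOARG00000000019), COX3 (ENSOARG00000000023), ATP6 (ENSOARG00000000022) and ATP8 (ENSOARG00000000021). They were chosen by these IDs, which give 6 of the 27054 genes in each table. Total RNA of 14 male suckling lambs was sequenced from perirenal fat, which surrounds the kidney, as 1 library per lamb. Assaf and Churra, a pair of sheep breeds, gave 8 and 6 lambs. All were reared on milk replacer after a first colostrum meal and were slaughtered at a common market weight, where mean ± SD of live weight was 10.3 ± 0.612 kg for Assaf lambs and 10.3 ± 0.816 kg for Churra lambs. Assaf lambs were slaughtered on days 17 to 23 (mean 21.0 ± 2.33, SD) and Churra lambs on days 21 to 35 (mean 26.5 ± 5.72, SD). The labels do not say from when that day is counted. Breed and slaughter day were therefore only partly separable, since 6 Assaf and 3 Churra lambs fell on days 21 to 23 and the other 3 Churra lambs on days 29 to 35.

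Mitochondria keep a small circular genome whose protein-coding genes all encode core subunits of oxidative phosphorylation. CYTB is the cytochrome b subunit of complex III, which passes electrons from ubiquinol to cytochrome c. COX1, COX2 and COX3 form the catalytic core of complex IV, cytochrome c oxidase, which passes those electrons to oxygen. ATP6 and ATP8 belong to the membrane part of complex V, ATP synthase, and ATP6 lines the path by which protons return to the matrix. The mRNAs are cut from long shared transcripts, and ATP8 and ATP6 stay together on 1 mRNA with overlapping reading frames. In lambs, perirenal fat is known as a brown fat depot at birth, rich in mitochondria, which turns into white fat over the first weeks of life.

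The names were checked against the RefSeq annotation of the sheep mitochondrial genome in assembly ARS-UI_Ramb_v3.0. All 37 mitochondrial IDs, with the 13 protein-coding genes among them, had the same length as the gene at the same place in the RefSeq order. The symbols of these 13 also matched, but they had been given by gene order, so only the lengths are a check. The annotated lengths were 1545 bases for COX1, 201 for ATP8, 679 for ATP6, 784 for COX3 and 1140 for CYTB, and COX2 was slightly longer than ATP6. ATP8 and ATP6 shared 40 bases in the annotation, and 1 base lay between ATP6 and COX3, so reads that span these joins can belong to neighbouring members. The deposited count of each member was a whole number in every lamb, to within 0.005. The posterior standard deviation of these counts, which grows with the number of reads that RSEM had to share among genes, was at most 0.04 counts, in COX1. No positions are given, because the tables and the reference use different genome builds.

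Total counts ranged from 14152623 to 24370948 per lamb, and the count of a single member ranged from 45773 (ATP8 in Assaf 3) to 2904565 (COX1 in Churra 6). The exact Clopper-Pearson 95% interval of a member's percent of counts was at most 0.0155 percentage points wide on either side, and this covers counting error only. Counting error was therefore far below the differences between lambs. The 22 mitochondrial tRNA genes had a count of 0 and an effective length of 0 in every lamb. Because 0 of the 27054 IDs could be found in the reference gene table by ID, markers of brown or white adipocytes and of neighbouring tissues such as kidney were not checked. In bulk tissue, fewer cells of a type and less RNA per cell cannot be told apart.

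The 6 members were among the most abundant RNAs in the library of every lamb. Together they held 18.7% ± 5.01 of all counts (SD, n = 14), from 11.2% in Assaf 3 to 30.7% in Assaf 7. On the TPM scale, which divides each count by the gene's effective length before scaling to a fixed total, they held 24.6% ± 5.33 (SD, n = 14), from 16.1% to 37.0%. The lamb lowest and the lamb highest on both scales were the same 2 animals, both Assaf. All 37 mitochondrial IDs held 27.7% ± 7.45 of counts (SD, n = 14), and the 7 complex I mRNAs held 8.62% ± 2.34 (SD, n = 14). The mitochondrial rRNAs held only the small rest, as the tRNA genes had no counts. These shares therefore describe the libraries and not all RNA of the tissue. Of the counts in the 13 mitochondrial mRNAs, the 6 members took 68.4% ± 2.12 (SD, n = 14), with a range of 65.2% to 72.0%.

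COX1, the subunit of complex IV that holds its oxygen-binding site, had the most counts of any gene in 14 of 14 lambs. It took 8.46% ± 2.26 of all counts (SD, n = 14). COX3, which supports the catalytic core, took 3.35% ± 1.04 and had rank 3 by mean count, and CYTB took 3.27% ± 0.898 and had rank 4 (SD, n = 14 for both). Only ND4, a complex I subunit, stood between COX1 and COX3. ATP6 had rank 5 with 1.91% ± 0.481, COX2, which receives the electrons from cytochrome c, had rank 11 with 1.29% ± 0.428, and ATP8 had rank 20 with 0.376% ± 0.0898 (SD, n = 14 for each). Counts are not per length, and COX1 is the longest member and ATP8 the shortest.

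Per length, the order changed, and for ATP8 it depended on which length was used. In TPM, ATP8 had the highest level of all genes in 14 of 14 lambs, with a mean of 64675 ± 12397 (SD, n = 14). COX1 followed with 52894 ± 11963 TPM, COX3 with 46505 ± 12231 and ATP6 with 32007 ± 6672 (SD, n = 14 for each). CYTB had rank 5 with 28829 ± 6677 TPM, ND4 rank 6 and COX2 rank 7, which made COX2 the member with the lowest TPM, 21365 ± 6106 (SD, n = 14 for both). All 6 members were among the 10 genes with the highest TPM in all 14 lambs.

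The TPM of ATP8 rests on an effective length, the number of positions at which a fragment could start, of only 48.0 to 54.6 bases, against an annotated length of 201 bases. When CPM (counts scaled to a fixed total) were divided by the annotated length in kilobases instead, a choice made after the data were seen, ATP8 was no longer highest and stood level with COX2 below the other 4. On that scale COX1 had 54756 ± 14630 CPM per kilobase, COX3 had 42783 ± 13320, CYTB 28647 ± 7876 and ATP6 28173 ± 7078 (SD, n = 14 for each). COX2 had 18912 ± 6258 and ATP8 18729 ± 4467 CPM per kilobase (SD, n = 14 for both), and COX2 was the higher of this pair in 6 of 14 lambs. The rank of ATP8 thus depended on the length used, whereas COX1 was above COX2, ATP6 and CYTB in all 14 lambs on either scale.

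**Figure D1:**
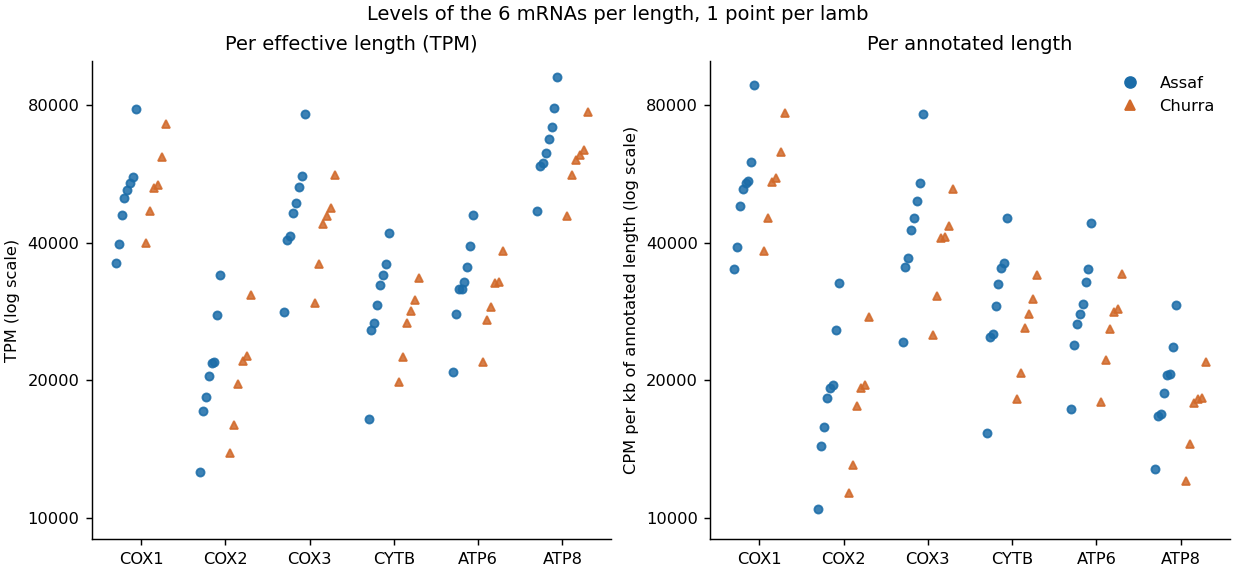
Level of each member per length in the 14 lambs, as deposited TPM, which uses the effective length, and as CPM per kilobase of annotated length, with 1 point per lamb and both vertical axes on a log scale. ATP8 has the highest mean on the first scale (64675) and stands level with COX2 on the second (18729 and 18912), while COX1 has 52894 and 54756.

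Ratios within a lamb cancel the total count and the scaling factor of a library and show how tightly the members kept their proportions. In TPM they still depend on each library's effective lengths, which for ATP8 ran from 48.0 to 54.6 bases. ATP8 and ATP6, which share an mRNA, had the tightest ratio. In TPM, ATP8 was 2.03-fold higher than ATP6, with a log2 ratio of 1.02 ± 0.09 (SD, n = 14) and ATP8 higher in 14 of 14 lambs. By annotated length the log2 ratio was -0.58 ± 0.07 (SD, n = 14), and ATP8 was higher in 0 of 14 lambs. Both scales thus gave a steady ratio, but in opposite directions.

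Among the 3 complex IV mRNAs, COX2 was lowest per length in every lamb. The log2 TPM ratio of COX1 to COX2 was 1.33 ± 0.18 and that of COX2 to COX3 was -1.13 ± 0.12 (SD, n = 14 for both). Neighbours in the TPM order were not all separated by their spread. COX1 exceeded COX3 in 10 of 14 lambs with a log2 ratio of 0.20 ± 0.20, and ATP6 exceeded CYTB in 13 of 14 lambs with a log2 ratio of 0.16 ± 0.11 (SD, n = 14 for both). By annotated length ATP6 and CYTB were level, with a log2 ratio of -0.01 ± 0.11 (SD, n = 14) and ATP6 higher in 6 of 14 lambs. COX3 was above CYTB in 14 of 14 lambs on either scale, by 0.68 ± 0.09 in log2 TPM (SD, n = 14).

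The members varied together from lamb to lamb. In log2 CPM scaled by TMM factors, Pearson's r between members over the 14 lambs ranged from 0.927 for COX1 with CYTB to 0.994 for ATP8 with ATP6. These values are descriptions without a test, since all members of a lamb share 1 library, 1 scaling factor and long common transcripts. The SD of the log2 ratio between 2 members, which the scaling factor does not touch, ran from 0.07 for ATP8 and ATP6 to 0.23 for COX1 and CYTB. Ratios in which COX1 or COX2 took part had SDs of 0.12 to 0.23, and ratios among ATP8, ATP6, COX3 and CYTB had SDs of 0.07 to 0.13.

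The genes outside the 6 whose pattern was most like theirs were mostly complex I mRNAs. Over the 14 lambs CYTB was closest to ND4 (r = 0.993), ATP8 to ND4 (r = 0.991), COX3 to ND1 (r = 0.990), ATP6 to ND4 (r = 0.986) and COX2 to ND6 (r = 0.986). For CYTB and ATP8, the unnamed gene ENSOARG00000005798 was also among the closest 3, with r = 0.989 and r = 0.981. COX1 differed here too, as its closest gene was the unnamed ENSOARG00000025709 (r = 0.976) and no mitochondrial mRNA outside the 6 was among its closest 3. These r values also come from shared libraries and scaling and carry no p.

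Lambs of 1 breed differed more in these genes than in most others. Within breeds, the SD of log2 CPM after TMM scaling was 0.55 for ATP8, 0.58 for ATP6, 0.60 for COX1, 0.63 for CYTB, 0.66 for COX3 and 0.70 for COX2. The median over the 13197 genes tested was 0.28, and the members lay between percentiles 85.7 and 92.6 of these genes. The complex I mRNAs varied as much, with SDs from 0.59 (ND4L, percentile 87.7) to 0.75 (ND6, percentile 93.8). TMM factors moved with the members: the lowest factor, 0.684, belonged to Assaf 7, which had the highest member levels, and the highest, 1.22, to Assaf 3, which had the lowest summed level. COX1 differed 2.52-fold between the lowest and the highest lamb as a percent of counts but 4.49-fold in TMM-scaled CPM.

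The first comparison asked whether the breeds differed, which is the contrast the study was built on. None of the 6 members differed between Churra and Assaf lambs beyond the spread between animals. COX1 took 5.43% of counts in the lowest Assaf lamb, 8.25% at the median and 13.7% in the highest, against 5.94%, 8.47% and 11.9% in Churra. COX3 took 1.91%, 3.46% and 6.00% in Assaf and 1.97%, 3.22% and 4.12% in Churra. CYTB took 1.75%, 3.51% and 5.18% in Assaf and 2.08%, 3.08% and 3.87% in Churra. For these 3 members the Churra lambs lay wholly inside the range of the Assaf lambs.

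ATP6 took 1.17%, 1.94% and 3.001% of counts in Assaf (lowest, median, highest) and 1.22%, 1.84% and 2.33% in Churra. ATP8 took 0.257%, 0.395% and 0.588% in Assaf and 0.242%, 0.362% and 0.441% in Churra. COX2 took 0.716%, 1.29% and 2.24% in Assaf and 0.776%, 1.26% and 1.89% in Churra. The breeds overlapped for each of these members, and only ATP8 had its lowest lamb in Churra. Within each breed the same lambs were at the ends for all 6 members, Assaf 3 and Assaf 7 in one and Churra 1 and Churra 6 in the other.

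**Figure D2:**
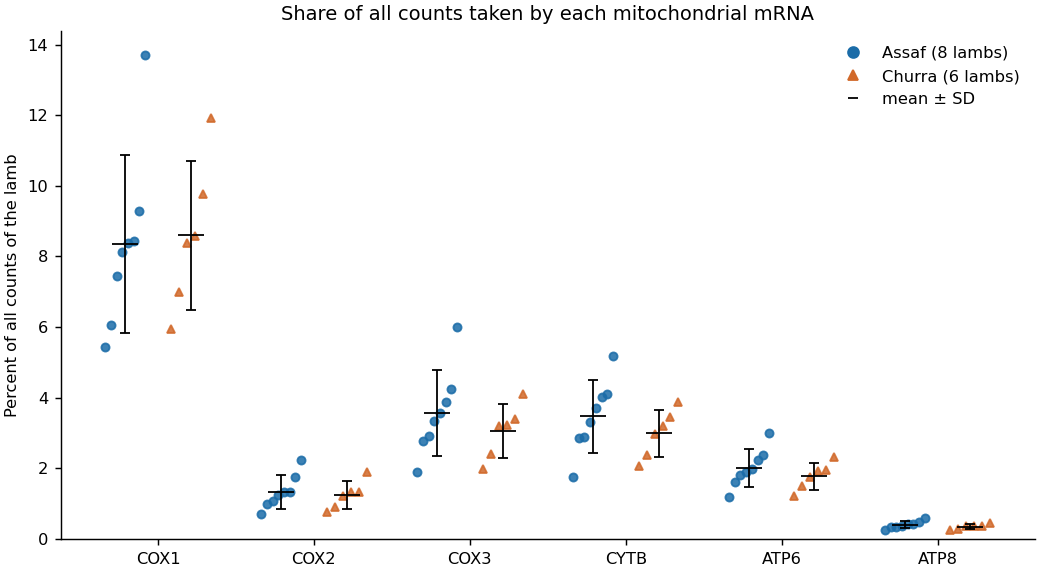
Percent of all counts taken by each member in each lamb, by breed, with 1 point per lamb and the mean and SD drawn over the points. The breeds overlap for all 6 members, and the highest point of each is Assaf 7.

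With edgeR's quasi-likelihood test and Benjamini-Hochberg adjustment, 0 of 6 members were called at an adjusted p below 0.05, against 26 of the 13197 genes tested (0.197%). At an unadjusted p below 0.05 the count was also 0 of 6, against 1767 of the 13197 genes. DESeq2 called 0 of 6 members and 371 of 13197 genes. With limma on log2(TPM + 0.5), 0 of 6 members and 10 of 13197 genes were called. No member had its Churra and Assaf lambs apart in TMM-scaled CPM, which was so for 72 of the 13197 genes (0.546%). The fitted log2 fold changes, Churra minus Assaf, were all negative, with a median of -0.32 against -0.01 over all genes tested. By edgeR they were -0.36 ± 0.34 for COX3 (SE, adjusted p = 0.713), -0.34 ± 0.32 for CYTB (SE, adjusted p = 0.706) and -0.09 ± 0.32 for COX1 (SE, adjusted p = 0.952). The other 3 were -0.34 ± 0.28 for ATP8, -0.30 ± 0.30 for ATP6 and -0.24 ± 0.35 for COX2 (SE, edgeR adjusted p of 0.669, 0.730 and 0.841).

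The direction of these small differences was not stable. With slaughter day added to the model all 6 turned positive, from 0.03 for ATP8 to 0.35 for COX1, and again 0 of 6 passed (edgeR adjusted p of 0.700 to 0.980). Among the 9 lambs of days 21 to 23 the median difference was -0.01, with COX1 at 0.25 and COX2 at 0.16. On those days 4 of 6 members stayed negative and 0 of 6 passed (edgeR adjusted p of 0.851 to 0.998). Without Assaf 7 alone, the median over the members moved from -0.32 to -0.07 and COX1 and COX2 turned positive. The mean percent of counts of COX1, which is not TMM-scaled, was 8.36% ± 2.51 for the 8 Assaf lambs and 8.59% ± 2.10 for the 6 Churra lambs (SD), opposite in sign to the fitted value.

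The second comparison asked whether the levels varied with slaughter day. In Churra, the breed with the wider range of days, the 6 members together took 12.2% of counts on day 35, 14.5% on day 30 and 18.2% on day 29. They took 18.5% on day 23, and 19.99% and 24.6% in the 2 lambs of day 21. The 3 later lambs, at 15.0% ± 3.03, thus lay below the 3 earlier ones, at 21.0% ± 3.14 (SD, n = 3 each).

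For single members the picture in Churra was the same but not all were separated. COX1 ranged from 5.94% to 8.38% of counts in the 3 later lambs and from 8.57% to 11.9% in the 3 earlier ones, without overlap. CYTB ranged from 2.08% to 2.97% in the later and from 3.19% to 3.87% in the earlier lambs, also without overlap. COX2, ATP8, ATP6 and COX3 overlapped, in each case because the day 29 lamb, Churra 3, was above at least 1 earlier lamb. Thus 2 of 6 members had all later lambs below all earlier ones, against 520 of the 13197 genes tested (3.94%), and 3829 genes (29%) did not overlap in either direction. Shares of counts are tied to each other, so lower shares of abundant RNAs raise those of the rest. In Assaf the days spanned only 17 to 23, and the lowest lamb (Assaf 3, day 23) and the highest (Assaf 7, day 21) were 2 days apart.

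**Figure D3:**
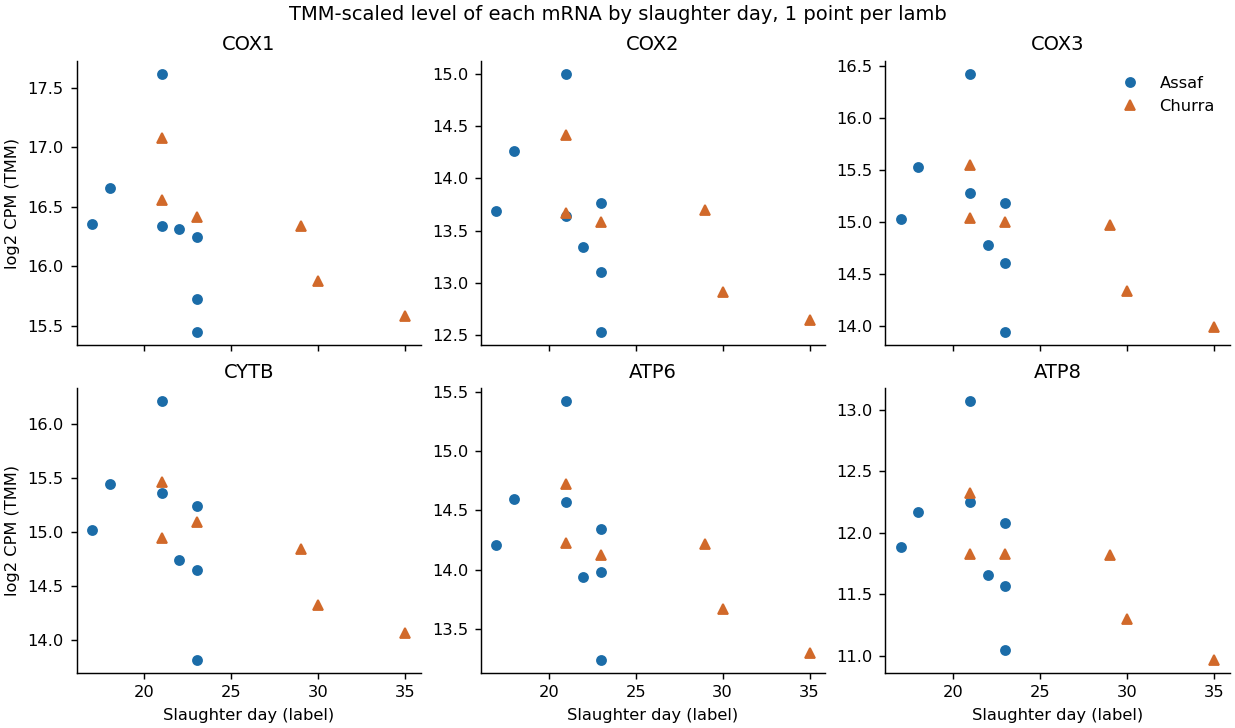
Level of each member in TMM-scaled CPM, on a log2 axis, against slaughter day, with 1 point per lamb and breeds in different colours. The Churra lambs of days 30 and 35 lie below the other 4 Churra lambs in every panel, and lambs of days 21 to 23 are widely spread.

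Across all 14 lambs, with breed in the model, the fitted log2 change per 10 days was negative for all 6 members. By edgeR it was -1.01 ± 0.41 for COX2, -0.91 ± 0.41 for COX3 and -0.88 ± 0.38 for COX1 (SE, adjusted p of 0.265, 0.291 and 0.275). For CYTB it was -0.85 ± 0.38, for ATP6 -0.78 ± 0.36 and for ATP8 -0.73 ± 0.34 (SE, edgeR adjusted p of 0.289, 0.301 and 0.300). These values correspond to levels 1.66-fold (ATP8) to 2.02-fold (COX2) lower per 10 days. By edgeR, no member passed at an adjusted p below 0.05 (0 of 6), and neither did any of the 13197 genes tested (0%). DESeq2 also called 0 of 6 members, with adjusted p of 0.127 to 0.185, but it called 156 of the 13197 genes. With limma on log2(TPM + 0.5), 0 of 6 members and 0 of 13197 genes were called.

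At an unadjusted p below 0.05, all 6 members had negative slopes (p of 0.0282 to 0.0482), where 1180 of the 13197 genes (8.94%) met the same rule. Their median slope was -0.86 against 0.01 over all genes. The 6 are not independent of each other, since they vary together from lamb to lamb, and the lowest of their p-values, that of COX2, had rank 1401 among the 13197 genes. The complex I mRNAs had the same median slope, -0.86, with 7 of 7 negative, 4 of 7 at an unadjusted p below 0.05 and 0 of 7 called. In the breed contrast they also had 7 of 7 negative values and 0 of 7 called, where 51.6% of all genes were negative. Of the 7, ND3 alone was at an unadjusted p below 0.05 for breed, a rule that 1767 of the 13197 genes met.

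Scaling moved the size of the slope. A change of library factors shifts the log2 level of all genes in a lamb about alike. The distance between the members and all genes is then nearly fixed in advance and is no check on the slope. With total counts in place of TMM factors the median slope of the members was -0.59 and that of all genes 0.28, a distance of -0.87. With limma on log2(TPM + 0.5) the members' median was -0.50, that of all genes 0.33 and the distance -0.83. Under each of these scalings all 6 slopes stayed negative and 0 of 6 were called. The count of 6 at an unadjusted p below 0.05 did not hold throughout. It was 4 of 6 with upper-quartile factors, with scaling from genes other than the mitochondrial IDs and with limma on log2(TPM + 0.5), 2 of 6 with live weight added, and 1 of 6 with limma and no filter. How many of all genes met that rule was not counted under these alternatives, so the counts have no background share beside them.

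Within breeds, the slopes were better determined in Churra. In Churra alone they ran from -0.95 for COX2 to -0.74 for ATP8, with 6 of 6 at an unadjusted p below 0.05 and edgeR adjusted p of 0.155 to 0.180. In that fit 0 of 12229 genes were called, and the share of all genes at an unadjusted p below 0.05 was not counted. The 6 members vary together, so they do not count as 6 separate results. In Assaf alone they ran from -1.34 for COX2 to -0.69 for ATP8, with 0 of 6 at an unadjusted p below 0.05 and an edgeR adjusted p of 0.991 for each. The test of the difference between the breeds' slopes called 0 of 6 members and 0 of 13197 genes (0%). At an unadjusted p below 0.05 it had 0 of 6 members and 554 of the 13197 genes. Those differences ran from -0.03 for ATP8 to 0.41 for COX2 with standard errors of 0.95 to 1.16. Their median, 0.19, became 1.46 without Assaf 1, -0.09 without Assaf 4 and -0.43, with all 6 negative, without Assaf 3. Leaving out Churra 1, Churra 2 or Churra 6 left 0 of 6 slopes at an unadjusted p below 0.05. Without Assaf 4 there was 1 of 6, without Assaf 5 or Assaf 8 there were 2, without Assaf 2, Assaf 6 or Churra 4 there were 3 and without Assaf 3 there were 4, and all 6 slopes stayed negative in each of these fits. The share of all genes at an unadjusted p below 0.05 was not counted in these fits either.

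**Figure D4:**
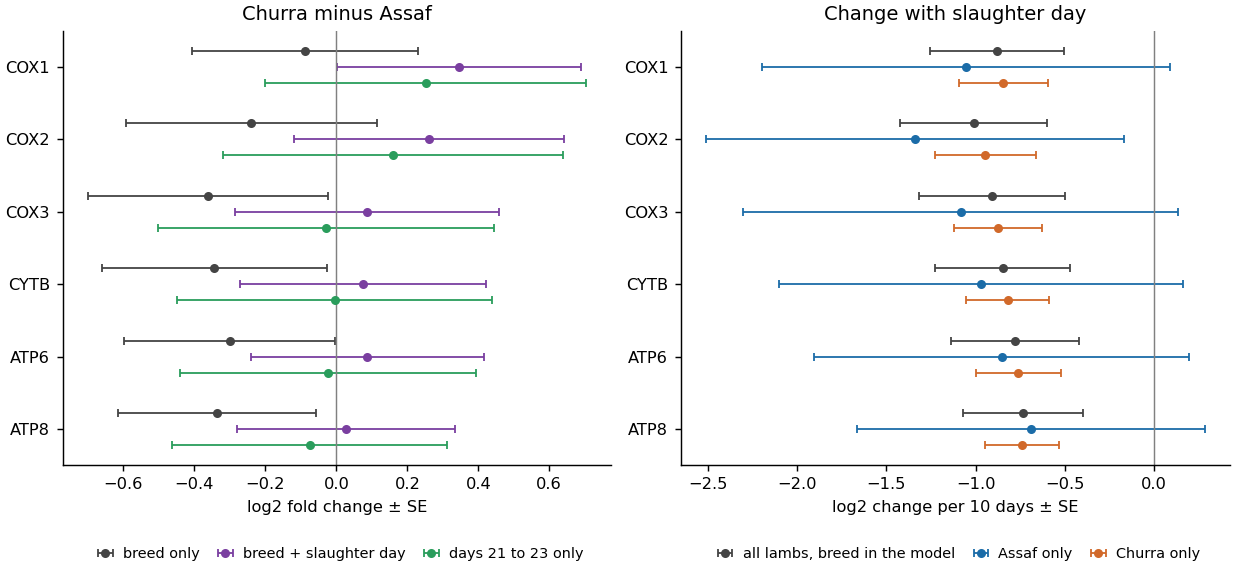
Fitted log2 difference between the breeds (Churra minus Assaf; breed alone, with slaughter day added, and on days 21 to 23) and fitted log2 change per 10 days (all lambs, Assaf alone, Churra alone) for the 6 members, as points with standard errors. The breed differences change sign between models, and the slopes lie between -1.01 and -0.73 in all lambs, with wide errors in Assaf alone.

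The last comparison looked at the mix of mitochondrial mRNAs, as each member's share of the counts in the 13 mitochondrial protein-coding genes of the same lamb. This share does not depend on scaling between libraries, but a higher share of 1 gene must lower those of others. The share of COX1 was lower in most Assaf lambs, with 26.3% in the lowest, 29.4% at the median and 35.0% in the highest, against 31.0%, 33.6% and 35.1% in Churra. Assaf lambs averaged 29.7% ± 3.16 and Churra lambs 33.2% ± 1.68 (SD), a difference of 3.44 percentage points (exact permutation, two-sided, unadjusted p = 0.0353). Of the Assaf lambs, 2 lay inside the Churra range, Assaf 3 and Assaf 5, and the other 6 lay below it.

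The share of COX3 differed in the other direction, with 12.5% ± 0.645 for the Assaf lambs and 11.7% ± 0.408 for the Churra lambs (SD). The difference was -0.759 points (exact permutation, two-sided, unadjusted p = 0.0273), and the lambs ranged from 11.7% to 13.4% in Assaf and from 11.2% to 12.3% in Churra, with overlap. The share of ATP8 was 1.43% ± 0.112 against 1.34% ± 0.0457 (n = 8 and 6, exact permutation p = 0.0809), and that of CYTB 12.2% ± 0.923 against 11.5% ± 0.520 (n = 8 and 6, exact permutation p = 0.125). ATP6 had 7.16% ± 0.530 against 6.89% ± 0.307 (n = 8 and 6, exact permutation p = 0.306). COX2 had 4.66% ± 0.447 against 4.70% ± 0.455 (n = 8 and 6, exact permutation p = 0.867). These 6 tests were not adjusted for their number.

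Neither share difference held in all settings. Among the 9 lambs of days 21 to 23, COX1 differed by 3.71 points and COX3 by -0.547 points (exact permutation over 84 splits, p = 0.167 and 0.179). On those days ATP8 differed by -0.171 points (exact permutation p = 0.0476). Set against the complex I mRNAs alone, a denominator chosen after the data were seen, COX1 averaged 92.9% of their counts in Assaf (range 75.6% to 123%) and 109% in Churra (range 94.6% to 125%), with an exact permutation p of 0.0656, and COX3 differed by -0.373 points (exact permutation p = 0.814). The p of COX1 rose to 0.0501 or more without any 1 of Assaf 2, 4, 6 or 8 or Churra 1, 2, 5 or 6, and that of COX3 rose above 0.05 without Churra 1, 2 or 4.

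**Figure D5:**
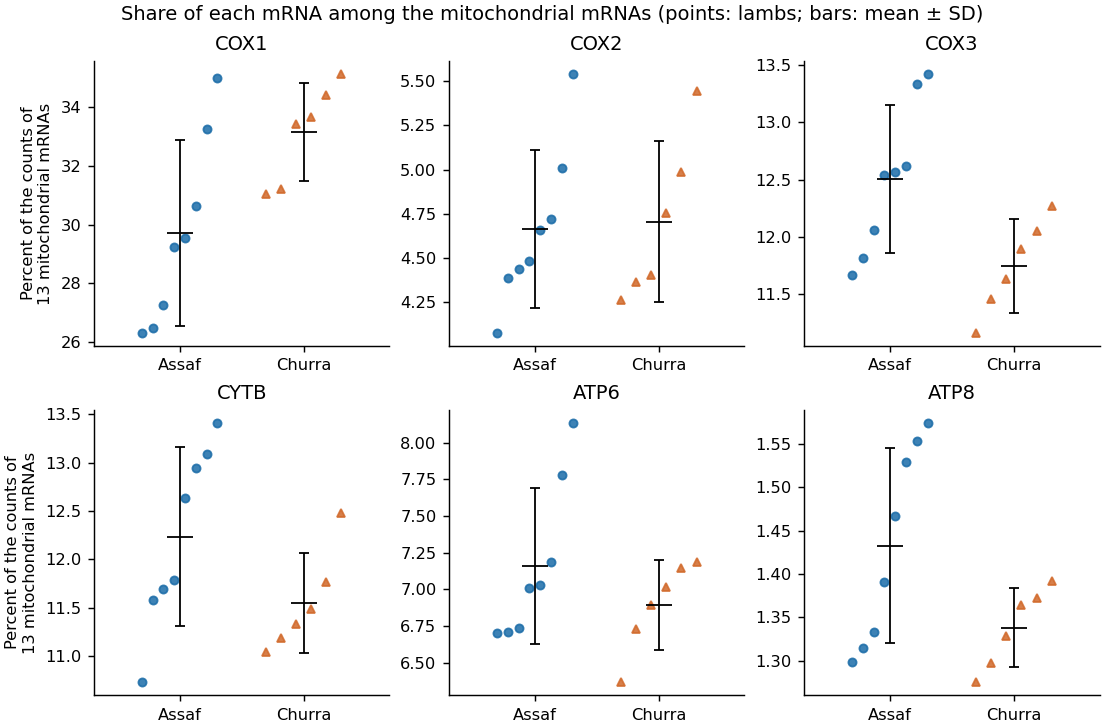
Share of each member in the counts of the 13 mitochondrial protein-coding genes, in percent, by breed, with 1 point per lamb and the mean and SD drawn over the points; the vertical axes differ between panels and do not start at 0. COX1 averages 29.7% in Assaf and 33.2% in Churra, and the breeds overlap in all 6 panels.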

How the data were processed

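Libraries of total RNA came from a kit that marks strand, per the labels' protocols. The submitters' processing notes list RSEM 1.3.0, STAR 2.4.0, FastQC and Oar_v3.1 without role or order. What strand setting, trimming and filters were used is not given in the sources used here. The authors deposited expected counts and TPM per gene in 1 table per lamb, per the file headers. The TPM use RSEM's effective length.

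Lambs were numbered within a breed in accession order, so numbers pair no lambs. No lamb was a duplicate of another of its breed, as chi-square per degree of freedom was at least 26.5 between lambs of a breed. Lambs of different breeds were not compared in this way. Expected counts were rounded and filtered with filterByExpr by breed, which left 13197 genes, all 6 members among them, and were scaled by TMM. edgeR 4.0.16 in R 4.3.3 gave the quasi-likelihood F tests (robust, two-sided) of breed, of slaughter day with breed as a term, and of their interaction, adjusted by Benjamini-Hochberg over all genes at 0.05. Standard errors equal the size of the log2 change over the root of F. Log2 CPM for correlations used a prior count of 2. Shares were compared with exact permutation tests that used every split of the lambs. Scripts were tested on simulated data.

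Alternatives were the scaling (total count, upper quartile, DESeq2 size factors, and factors from genes other than the 37 mitochondrial IDs), no low-count filter, DESeq2 1.42.0, limma 3.58.1 on log2(TPM + 0.5) or log2(TPM + 0.1), slaughter day or live weight as a term, days 21 to 23 only, each breed alone and each lamb left out. The complex I denominator and the annotated length were added after the data were seen. The 6 members were named by their IDs, the complex I list by mitochondrial gene order, and the most similar genes by the 3 highest Pearson r per member. The members and lists were chosen with earlier results of these data known. Planned lists of nuclear respiratory genes and cell type markers were not analysed here, because no symbol could be matched to the nuclear IDs. The labels' lowest slaughter day, 17, is lower than any age the design text gives.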

Additional observations from a re-analysis of the deposited data

Results flagged for a closer look

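COX1 in Assaf 7 stood apart from the other 7 Assaf lambs as a percent of counts and in TPM. It took 13.7% of all counts, against 9.28% in the next lamb, a gap of 0.534 of the whole range of the breed. Its TPM was 78665, against 55639 in the next lamb, a gap of 0.542 of the range. The gap that marks an outlying sample by Dixon's criterion is exceeded by chance in about 1 of 20 groups, and 36 groups were examined here. No other member passed that criterion in either breed as a percent of counts, in TPM or as a share of the mitochondrial mRNA counts. Assaf 7 was the highest Assaf lamb for all 6 members as a percent of counts and in TPM.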

How the results depend on the processing

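No member was called for breed, for slaughter day or for their interaction under any alternative run, and all 6 slopes with slaughter day stayed negative in each. The sign of the breed difference did not hold. With slaughter day added it was 0.35 for COX1, 0.26 for COX2, 0.0267 for ATP8, 0.0866 for ATP6, 0.0859 for COX3 and 0.0749 for CYTB on the log2 scale. On days 21 to 23 it was 0.25 for COX1 and 0.16 for COX2, while 4 of 6 members stayed negative. For COX1 it was also 0.0401 with total counts and 0.0930 by limma with either pseudocount and with no filter. Leaving out 1 lamb gave -0.28 to 0.19 for COX1 and -0.48 to 0.0430 for COX2, with the highest values without Assaf 7, and COX1 was 0.03 without Churra 1.

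The share differences in percentage points, Churra minus Assaf, lost an exact permutation p below 0.05 on days 21 to 23 for COX1 (3.71) and COX3 (-0.547), against complex I mRNAs for COX1 (15.98) and COX3 (-0.373), and in TPM for COX3 (-0.514). ATP8 reached it on days 21 to 23 (-0.171), and ATP6 changed sign against complex I mRNAs (0.357). Without 1 lamb, COX1 ran from 2.96 to 4.20 (p of 0.00816 to 0.0754), COX3 from -0.878 to -0.628 (p of 0.0117 to 0.0668), COX2 from -0.108 to 0.166, ATP8 from -0.113 to -0.0740 and CYTB from -0.902 to -0.519. ATP8 passed without Assaf 7 or Assaf 8 and CYTB without Assaf 3, and COX2 changed sign without Assaf 6, Churra 3 or Churra 6. By annotated length the log2 ratio was 1.54 for COX1 over ATP8, -0.0196 for COX2 over ATP8, -0.58 for ATP8 over ATP6, -1.17 for ATP8 over COX3 and -0.60 for ATP8 over CYTB. For the other changes the cause was not tested.

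The exact 95% counting interval of a member's percent of counts was at most 0.0155 points on either side. No paired analysis was possible because the labels give no shared replicate numbers.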
